A study of Mus musculus with 2 samples.

Results

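The 10 genes described here are cell cycle regulators of the G1 phase and of entry into S phase. They are the D-type cyclins Ccnd1, Ccnd2 and Ccnd3, their kinase partners Cdk4 and Cdk6, the cyclins Ccne1 and Ccna2, and the inhibitors of cyclin-dependent kinases (CDKs) Cdkn1b, Cdkn2c and Cdkn2d. They were chosen by name, with earlier results of these data known. Their probes were found through the transcript accession of each array probe. All 10 had a probe, 14 probes in all, out of 20659 named genes and 39429 probes on the array. Each of the 14 probes was printed in 1 spot.

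SoNar is a fluorescent protein sensor that reports the NADH/NAD+ balance of the cytosol. Blood cells of E13.5 mouse fetal liver were sorted by their F405/F488 fluorescence ratio into SoNar-high cells (strain labelled C57BL/6) and SoNar-low cells (strain labelled C57BL), and Cy3-labelled total RNA of each sort was read on a 1-colour Agilent array. The labels name neither the promoter that drives the sensor, nor a treatment, nor the number of fetuses pooled. There was 1 array per group, so no difference has a replicate check and no p-value is given.

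In G1, D-type cyclins bind CDK4 or CDK6 and phosphorylate the retinoblastoma protein, which releases E2F factors. Cyclin E with CDK2 then drives entry into S phase, and cyclin A2 acts through S phase and into mitosis. The INK4 inhibitors, among them the products of Cdkn2c (p18) and Cdkn2d (p19), bind CDK4 and CDK6, whereas the product of Cdkn1b (p27) acts mainly on cyclin E and cyclin A complexes. In mouse blood formation CDK6 and cyclin D2 are known from progenitor and lymphoid cells, and cyclin D3 from the divisions of maturing erythroblasts and of lymphoid precursors.

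The processed signal is the scanner software's background-subtracted spot signal. Its 75th percentile over 43020 non-control spots was 186.5 units for SoNar-high cells and 222 units for SoNar-low cells. Each difference is the log2 signal on the SoNar-high array minus that on the SoNar-low array after dividing each array by its 75th percentile, so a positive value is higher in SoNar-high cells. By the scanner's flag, 49.4% of spots of SoNar-high cells and 42.4% of those of SoNar-low cells were well above background. A probe was taken as measured if it was so flagged and not saturated on both arrays, as were 15975 probes. The scanner software gives an error for each spot, and its error for a member's difference was 0.20 to 0.21. Spots of 213 probes printed 10 times varied by a median SD of 0.15 in the difference. Both errors cover the spots only and not animals, sorts or labelling reactions. A probe printed in several spots has a smaller scanner error because its spots were averaged, as for Rb1, Bub1 and Cdkn1a below. Such averaging adds no replicate. Levels of different probes depend on the probe and are not set against each other.

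The D-type cyclins differed in direction. Ccnd3 was higher in SoNar-high cells on both of its probes, and Ccnd1 and Ccnd2 were lower on their single probes. None of the 9 members measured on both arrays was at least 2-fold higher (0 of 9, against 5.28% of all 10223 measured genes) or at least 2-fold lower (0 of 9, against 4.44%). The other 6 measured members lay between -0.2 and 0.2, a range that held 26.6% of all measured genes, and the median of all measured genes was -0.08. Under some other processing settings fewer of these members lay in that range (3 of 6 in the value table deposited by the authors). The remaining member, Cdk6, was well above background on the SoNar-low array only. In bulk samples such as these, fewer cells of a type and less RNA per cell cannot be told apart.

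**Figure D1:**
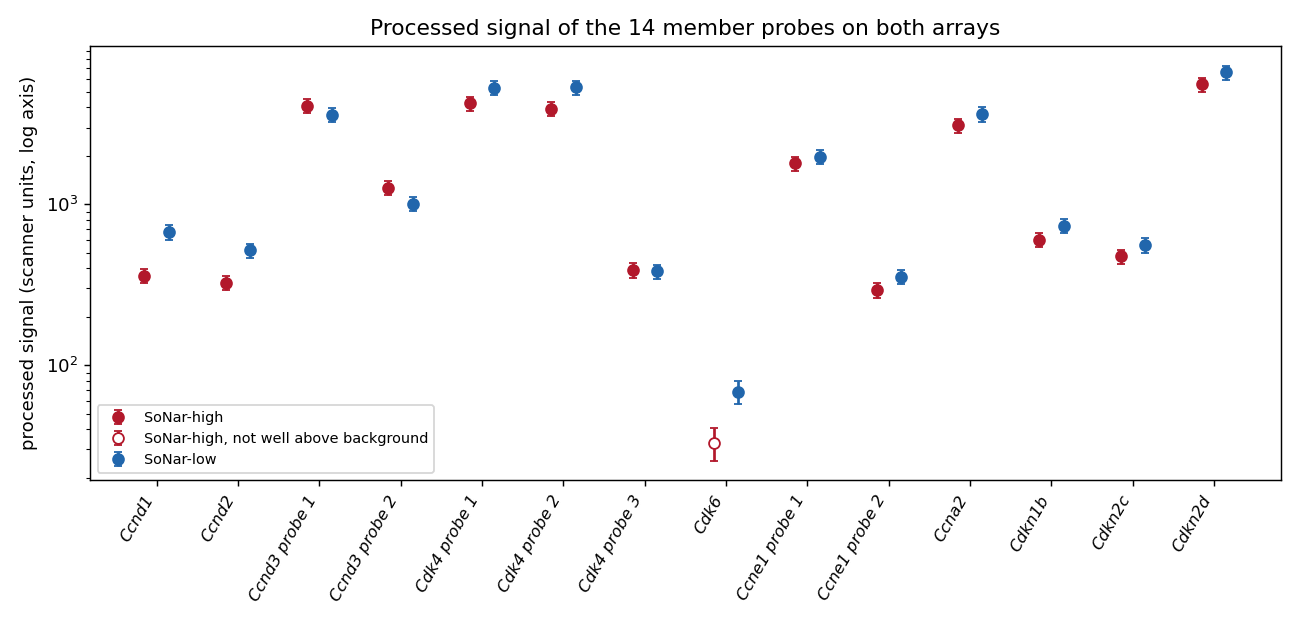
Processed signal (scanner units, log axis) of the 14 member probes on the SoNar-high (red) and the SoNar-low array (blue), with bars for the scanner error of each spot and an open point for a spot not well above background. Signals are not yet scaled between arrays, and the SoNar-high array has the lower 75th percentile (186.5 against 222 units). Both Ccnd3 probes are higher on the SoNar-high array (4098 against 3604 units, and 1272 against 1011 units). The Ccnd1 and Ccnd2 probes are lower, as are all other member probes but the dimmest of Cdk4 (389 against 383 units).

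Ccnd1, the D-type cyclin first known from growth factor responses, had a processed signal of 359.9 units in SoNar-high cells and 672 units in SoNar-low cells. Its scaled difference was -0.65 ± 0.21 (scanner error), or 1.57-fold lower, which was 3.13 times that error. It was the only member past 1.5-fold lower (1 of 9, against 17.7% of all measured genes), and no member was past 1.5-fold higher (0 of 9, against 13.8%). Of the measured genes, 15.0% had a lower value than Ccnd1, so its difference was well inside the spread of all genes.

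Ccnd2, the D-type cyclin of early progenitors and B cells, had 326 units in SoNar-high cells and 518 units in SoNar-low cells. The difference was -0.41 ± 0.21, or 1.33-fold lower, with 27.3% of genes below it. Ccnd1 and Ccnd2 shared a direction, and the gap between their differences, -0.23 ± 0.29, was smaller than its own error.

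Ccnd3 was read by a pair of probes designed on different transcripts. The brighter probe (NM_001081636) had 4098 units in SoNar-high cells and 3604 units in SoNar-low cells, a difference of 0.44 ± 0.20 or 1.35-fold higher. The other probe (NM_007632) had 1272 units in SoNar-high cells and 1011 units in SoNar-low cells, a difference of 0.58 ± 0.20, just under 1.5-fold. Both probes thus had the same direction, 0.15 apart, and 80.6% of measured genes lay below the brighter one.

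Read against the scanner error, 1 of 9 members was at least 2 errors higher (Ccnd3, against 17.9% of all measured genes) and 1 was at least 2 errors lower (Ccnd1, against 26.2%). Ccnd2 lay just inside that limit, at 1.99 errors. The members were therefore not past this limit more often than other genes.

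The balance among the D-type cyclins does not depend on a scaling factor, which cancels when the difference of a gene is taken from that of another. These contrasts were chosen after the values were seen. The difference of Ccnd3 exceeded that of Ccnd1 by 1.09 ± 0.29, a 2.12-fold change of their ratio between the arrays, and exceeded that of Ccnd2 by 0.85 ± 0.29, or 1.81-fold. Over 9 other processing settings the first contrast ranged from 0.78 to 1.17 and the second from 0.67 to 0.95, with the same sign in each. Settings that change only the scaling factor cannot move these contrasts, and the filters on dim probes did not. Quantile normalization and the value table deposited by the authors gave nearly the same contrasts (1.17 in each for the first).

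**Figure D2:**
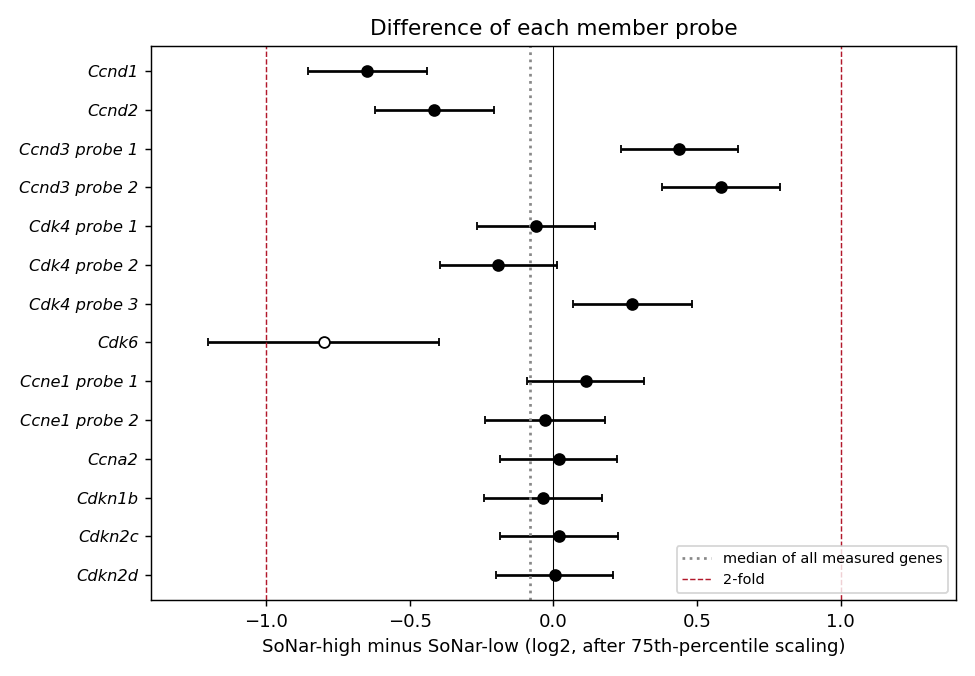
SoNar-high minus SoNar-low difference (log2, after 75th-percentile scaling) of each member probe, with bars for the scanner error, a dotted line at the median of all measured genes (-0.08), dashed lines at 2-fold and an open point for Cdk6, whose spot was not well above background in SoNar-high cells. The Ccnd1 and Ccnd2 probes lie below 0, both Ccnd3 probes lie above 0, and no measured probe reaches 2-fold.

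RefSeq promoter windows (GRCm38.p6) were on hand for 7 of the 10 members, and those of Ccnd3, Cdk6 and Cdk4 are shown because these genes carry the positive D-cyclin difference, the detection on 1 array only, and the kinase read by most probes. Each is the 250 bases before a transcription start, 5' to 3', and capitals mark the E-box CACGTG, to which MYC and MAX bind. Ccnd3 has a pair of starts in the table, the upstream at chr17:47504801-47505050 (+) and the downstream at chr17:47593217-47593466 (+), and which of them each probe's transcript uses was not analysed here. The Cdk6 window is chr5:3343643-3343892 (+) and the Cdk4 window chr10:127063285-127063534 (+).
Ccnd3 upstream start: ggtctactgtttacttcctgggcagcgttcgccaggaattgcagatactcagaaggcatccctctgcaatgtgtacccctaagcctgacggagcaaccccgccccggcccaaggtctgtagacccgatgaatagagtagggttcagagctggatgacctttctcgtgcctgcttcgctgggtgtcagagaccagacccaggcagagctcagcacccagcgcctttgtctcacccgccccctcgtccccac
Ccnd3 downstream start: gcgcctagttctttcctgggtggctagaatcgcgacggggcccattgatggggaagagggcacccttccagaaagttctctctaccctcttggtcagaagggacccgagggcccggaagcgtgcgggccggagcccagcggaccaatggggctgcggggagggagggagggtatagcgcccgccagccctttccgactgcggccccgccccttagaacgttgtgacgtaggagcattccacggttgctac
Cdk6: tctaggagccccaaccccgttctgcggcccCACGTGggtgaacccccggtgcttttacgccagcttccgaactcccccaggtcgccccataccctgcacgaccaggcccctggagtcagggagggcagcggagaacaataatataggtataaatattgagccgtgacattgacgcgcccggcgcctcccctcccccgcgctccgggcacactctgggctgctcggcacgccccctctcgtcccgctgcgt
Cdk4: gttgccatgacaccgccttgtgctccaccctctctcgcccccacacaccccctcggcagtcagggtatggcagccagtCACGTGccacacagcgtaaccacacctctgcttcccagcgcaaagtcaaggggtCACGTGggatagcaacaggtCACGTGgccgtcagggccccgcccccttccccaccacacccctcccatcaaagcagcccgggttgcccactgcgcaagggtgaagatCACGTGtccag

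The Cdk4 window held 4 E-boxes, a number reached by 7 of 32851 windows in the table (0.0213%), and the Cdk6 window held 1, as at least 1 was found in 6.02% of windows. The Ccnd3 windows held none of the letters searched on both strands, which were CACGTG, the E2F words TTTCGCGC, TTTGGCGC, TTTCCCGC and TTTGCCGC (at least 1 in 1.86% of windows) and the GATA word AGATAA (9.99%). Of all 9 member windows searched, 2 held an E-box (those of Cdk4 and Cdk6), 0 an E2F word and 0 the GATA word. No match says only that these letters are not in the window. Myc and Max, looked at because of the E-boxes and after their values were seen, had differences of 0.32 ± 0.21 and 0.56 ± 0.20. Mycn, of the same MYC family, went the other way, at -1.25 ± 0.23.

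Cdk4, the kinase partner of all D-type cyclins, was measured on 3 probes that did not share a direction. The brightest had 4248 units in SoNar-high cells and 5278 units in SoNar-low cells, a difference of -0.06 ± 0.20. A further probe had 3914 units in SoNar-high cells and 5325 units in SoNar-low cells (-0.19 ± 0.20), and the dimmest had 389 units in SoNar-high cells and 383 units in SoNar-low cells (0.28 ± 0.21). The range of 0.47 between them is near the median range of 0.41 over the 2021 genes with several measured probes, of which 37.9% had probes of opposite sign. The brightest probe turned positive under 5 of 9 other settings (up to 0.16), so no direction is given for Cdk4.

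Cdk6, the kinase that shares the D-type cyclins with CDK4, had 33.0 units in SoNar-high cells, where it was not well above background, and 68.5 units in SoNar-low cells, where it was. Its dim signal was above the lowest signal called well above background on that array, so its own value was used. The fold is therefore the measured ratio and not a lower bound. Cdk6 was 1.74-fold lower in SoNar-high cells by this ratio, under the 2-fold size used here. The measured difference of -0.80 had a scanner error of 0.40. Formed in the same way, the fold was 1.16 after normexp background correction. It was 2.20 both after quantile normalization and in the deposited value table, so its size depends on the processing.

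Ccne1, the cyclin that activates CDK2 at the start of S phase, had 1795 units in SoNar-high cells and 1980 units in SoNar-low cells on its brighter probe, a difference of 0.11 ± 0.20. Its other probe had 292 units in SoNar-high cells and 355 units in SoNar-low cells, a difference of -0.03 ± 0.21. Ccna2, the cyclin of S phase and G2, had 3090.0 units in SoNar-high cells and 3634 units in SoNar-low cells, a difference of 0.02 ± 0.20. All 3 differences were smaller than the scanner error.

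The inhibitors lay close to 0. Cdkn1b, which encodes p27, had 601 units in SoNar-high cells and 734 units in SoNar-low cells, a difference of -0.04 ± 0.21 whose sign turned under 5 of 9 other settings (up to 0.16). Cdkn2c, which encodes p18, had 474 units in SoNar-high cells and 557 units in SoNar-low cells, a difference of 0.02 ± 0.21. Cdkn2d, which encodes p19, had 5563 units in SoNar-high cells and 6609 units in SoNar-low cells, a difference of 0.00 ± 0.20. Each of the 3 was read by a single probe, and each difference was smaller than its scanner error, which with 1 array per group does not show that the levels were alike.

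In the order of differences, Ccnd1 came lowest, followed by Ccnd2, Cdk4, Cdkn1b, Cdkn2d, Ccna2, Cdkn2c, Ccne1 and Ccnd3. No neighbouring pair in this order was 2 errors apart (0 of 8 pairs), and the widest gap, between Ccnd2 and Cdk4, was 1.21 errors.

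The distance of the middle 6 members from 0 depended on the scaling. With the 75th percentile of detected probes as the scale, the median of all measured genes moved by 0.18, and those 6 members lay between 0.12 and 0.29. With a loess trend on mean signal removed, that median moved by 0.10 and they lay between 0.16 and 0.33. After quantile normalization and in the deposited value table they lay between 0.12 and 0.29. The range from -0.2 to 0.2 held 5 of 6 with the detected-probe scale and 2 of 6 after loess. It held 3 of 6 both after quantile normalization and in the deposited value table. Ccnd1 (-0.65 to -0.43) and Ccnd2 (-0.41 to -0.24) stayed below 0 and Ccnd3 (0.35 to 0.66) above 0 under all 9 other settings. The filters on dim probes left the values of these genes unchanged. Quantile normalization and the deposited value table gave nearly the same values as each other.

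**Figure D3:**
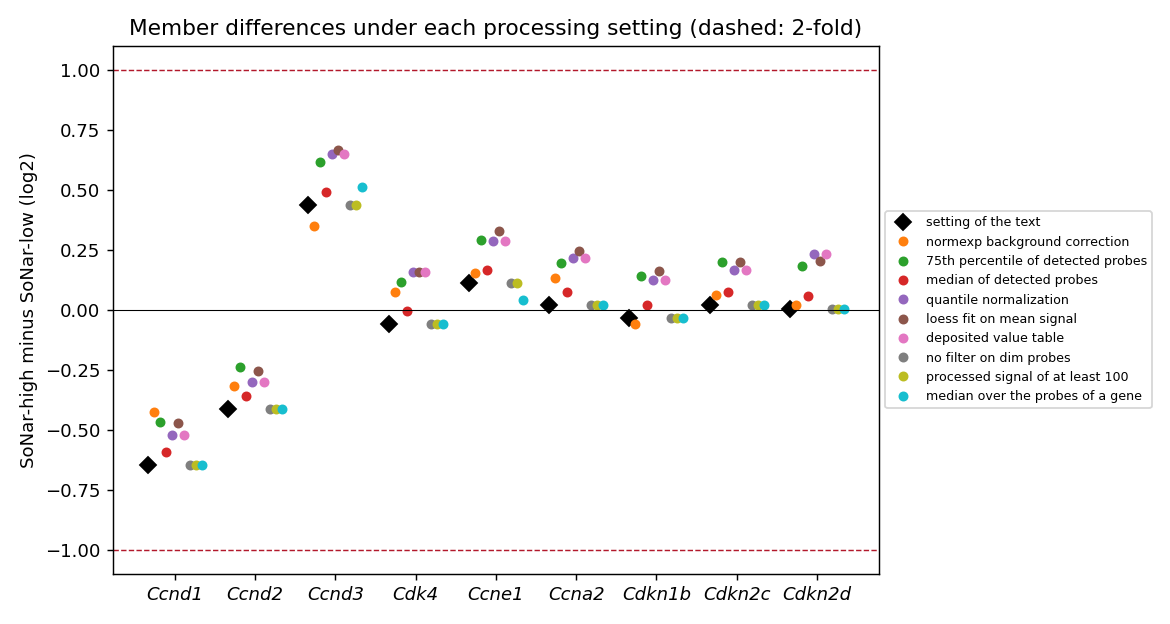
SoNar-high minus SoNar-low difference (log2) of the 9 measured members under the setting of the text (black diamonds) and 9 others (coloured points), with dashed lines at 2-fold. Ccnd1 and Ccnd2 stay below 0 and Ccnd3 above 0 in every setting, Cdk4 and Cdkn1b lie on either side of 0, and none reaches 2-fold.

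Other cyclins and kinases of the cycle were measured on both arrays for 15 of 17 listed genes. None was past 2-fold higher (0, against 5.28% of all measured genes) or past 2-fold lower (0, against 4.44%). At such shares a list of this size can well have 0, here and in the lists below. Of these genes 12 were below 0, against 5706 of all 10223 measured genes. Their median was -0.23 against -0.08 for all measured genes. Cdk7, the catalytic subunit of the CDK-activating kinase, had -0.98 ± 0.25, Cdk1, the mitotic kinase, had -0.83 ± 0.21, and the phosphatase gene Cdc25b had 0.77 ± 0.20. Cdc37, the co-chaperone that loads kinases such as CDK4 onto HSP90, had -0.09 ± 0.20. Ccne2 and Ccna1, the closest relatives of 2 members, were not well above background on either array.

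Of 5 other CDK inhibitors 3 were measured. None was past 2-fold (0 higher, against 5.28% of all measured genes, and 0 lower, against 4.44%). Cdkn1c, which encodes p57 and is imprinted, had 0.96 ± 0.22, with 232 units in SoNar-high cells and 143 units in SoNar-low cells. Cdkn3, a phosphatase acting on CDKs, had 0.22 ± 0.22 and Cdkn1a, which encodes p21, had -0.39 ± 0.09. The INK4 genes Cdkn2a and Cdkn2b were not well above background on either array, unlike the INK4 members Cdkn2c and Cdkn2d.

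Genes of the retinoblastoma, E2F and DREAM group lay on both sides of 0. Of 18 listed genes of this group, 17 were measured. Past 2-fold were 0 higher (against 5.28% of all measured genes) and 0 lower (against 4.44%). The median was 0.06, which turned negative under 2 of 9 other settings (down to -0.09). Lin9, a subunit of the MuvB core, had -0.84 ± 0.21, E2f7, a repressor, had -0.75 ± 0.21 with its other probe at -0.38, and the activator genes E2f3 and E2f2 had -0.69 ± 0.21 and 0.53 ± 0.20. The pocket protein genes, whose products the D-type cyclin kinases phosphorylate, belong to the list and were named after their values were seen. Rb1 had 0.59 ± 0.07, Rbl1 0.28 ± 0.21 with its other probe at -0.46, and Rbl2 0.01 ± 0.28. E2f5, like Cdk6, was well above background on the SoNar-low array only.

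Genes of cyclin and inhibitor turnover had 13 of 15 measured. Past 2-fold were 1 lower (against 4.44% of all measured genes) and 0 higher (against 5.28%). The median was -0.17, which turned positive under 1 of 9 other settings (0.01). The gene past 2-fold was Fbxw7, the ubiquitin ligase subunit that recognises cyclin E, at -1.55 ± 0.25 (80.2 units in SoNar-high cells and 279 units in SoNar-low cells), but its other probe gave 0.33. Fbxo31 had -0.68 ± 0.21 with its other probe at 0.44, the cullin gene Cul4a had 0.74 ± 0.21 and Cdc20 had 0.08 ± 0.20. Fbxw7 and Fbxo31 thus have no settled direction.

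Factors that act upstream of G1 were measured for 14 of 15 genes. Past 2-fold were 1 higher (against 5.28% of all measured genes) and 1 lower (against 4.44%). The median was -0.16, which turned positive under 3 of 9 other settings (up to 0.08). Klf1, the erythroid Kruppel-like factor, had 1.31 ± 0.26, and Mycn, a MYC-family factor of progenitors, had -1.25 ± 0.23. The erythropoietin receptor gene Epor had 0.95 ± 0.21, and Stat5b, a signal transducer below it, had -0.17 ± 0.20 with its other probe at 1.07.

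The later phases of the cycle lay lower than the G1 members as lists. All 30 S phase genes were measured, with 0 past 2-fold higher, 1 past 2-fold lower, 23 below 0 and a median of -0.33. Of all measured genes, 5.28% were past 2-fold higher and 4.44% past 2-fold lower. The members had 4 of 9 below 0 and a median of 0.00, and 5706 of all 10223 measured genes were below 0. Rfc1, the large subunit of the clamp loader, had -1.04 ± 0.20, the helicase subunit gene Mcm3 had -0.86 ± 0.20 and Mcm6 had -0.11 ± 0.20, while Cdc6, which loads the helicase, had -0.91 ± 0.30 with its other probe at 0.14. Of 26 mitosis genes 23 were measured, with 0 past 2-fold higher, 1 past 2-fold lower, 18 below 0 and a median of -0.27. Ndc80 of the outer kinetochore had -1.36 ± 0.21, the checkpoint kinase gene Bub1 had -0.95 ± 0.07, the motor gene Cenpe had -0.74 ± 0.20 and Birc5 had -0.27 ± 0.20 with its 3 probes between -0.42 and 0.11. Over the 9 other settings the S phase median ranged from -0.39 to -0.15 and the mitosis median from -0.27 to -0.09. The differences between lists were not tested.

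**Figure D4:**
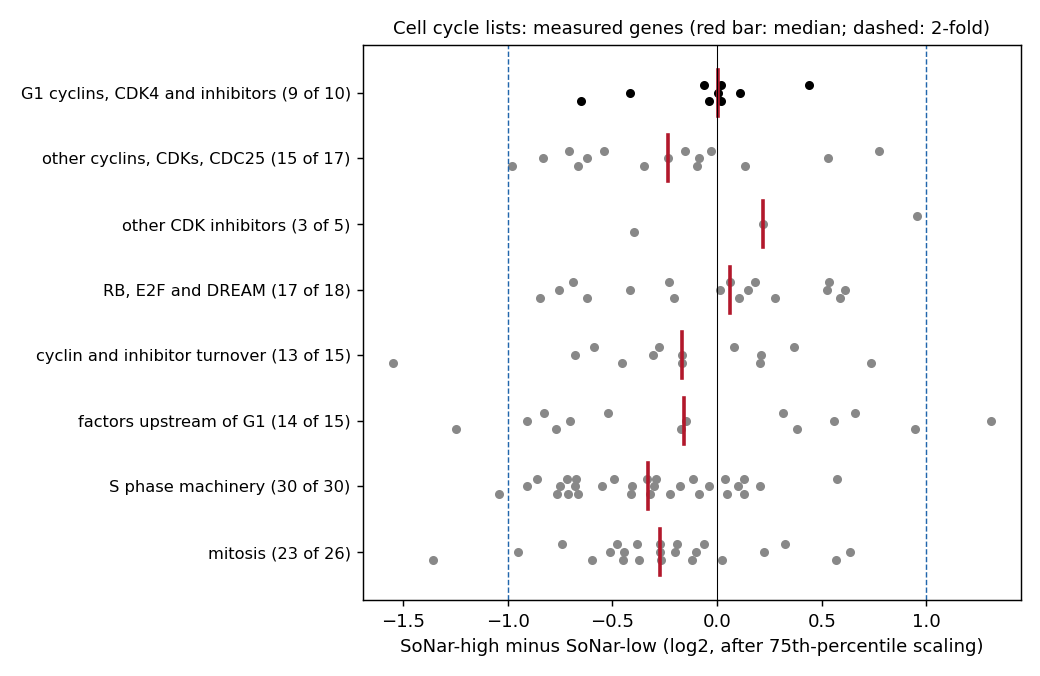
SoNar-high minus SoNar-low difference (log2, after 75th-percentile scaling) of the measured genes of each cell cycle list, 1 point per gene, with red bars at the list medians, dashed lines at 2-fold and the number measured of those listed in brackets. The members' median is 0.00, and those of the S phase and mitosis lists are -0.33 and -0.27.

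Markers of several blood and liver cell types also differed between the arrays. The marker lists were chosen with earlier results of these data known, so their counts are descriptive only. Of all measured genes, 5.28% were past 2-fold higher and 4.44% past 2-fold lower. Erythroid markers were higher in SoNar-high cells, with 11 of 12 measured genes past 2-fold and a summed scaled signal (in multiples of each array's 75th percentile) of 121 in SoNar-high cells and 46.0 in SoNar-low cells. Macrophage markers had 8 of 9 past 2-fold higher, with sums of 102 in SoNar-high cells and 38.7 in SoNar-low cells, and Timd4 not well above background in SoNar-low cells. Trim10 of erythroblasts had 2.07 and Dmtn 2.02, and the macrophage genes Marco and C1qa had 3.59 and 3.54.

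Progenitor and lymphoid markers lay on the other side. Stem and progenitor markers had 3 of 11 past 2-fold lower and 1 past 2-fold higher, with sums of 75.6 in SoNar-high cells and 119 in SoNar-low cells, led by Angpt1 at -1.90 with Ly6a at 1.48. B lymphoid markers had 6 of 9 past 2-fold lower (sums of 27.1 in SoNar-high cells and 77.5 in SoNar-low cells), with Vpreb1 at -1.90 and Blnk at -1.57. T and natural killer markers had 4 of 6 past 2-fold lower (sums of 10.7 in SoNar-high cells and 34.0 in SoNar-low cells), with Gzma at -3.90 and Klrd1 at -3.24, whereas the other 2 measured, Cd3e and Nkg7, had 0.87 and 0.22. Il2rb was well above background in SoNar-low cells only. Ccnd1 and Ccnd2 had the sign of these 3 lists' medians, and Ccnd3 had the sign of the medians of the other 7 marker lists (0.39 to 2.93). Because the list medians lie on both sides of 0, any gene shares its sign with some of them, so these matches carry no weight. The part of the cell mix in the member differences was not tested.

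Markers of non-blood cells and of further blood cells were also measured on both arrays. Endothelial markers had 4 of 6 past 2-fold higher (sums of 34.1 in SoNar-high cells and 21.8 in SoNar-low cells, Cdh5 3.07, Stab2 2.64), and hepatic markers had 5 of 6 (sums of 61.1 in SoNar-high cells and 19.4 in SoNar-low cells, Fgg 2.44, Serpina1a 2.09). The endothelial gene Tek and the hepatic gene Ttr were well above background in SoNar-high cells only. Neutrophil and granulocyte markers had 2 of 8 past 2-fold higher (Mmp8 2.46, Lcn2 1.89), with sums of 968 in SoNar-high cells and 651 in SoNar-low cells. Megakaryocyte markers had 1 of 5 (Clec1b 1.86, Vwf 0.93), with sums of 12.3 in SoNar-high cells and 9.94 in SoNar-low cells. Of 4 general blood cell markers 3 had a probe, and all 3 were well above background on both arrays, as the tissue label implies, with Hba-a1 at 0.91 and Spn at -1.12.

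**Figure D5:**
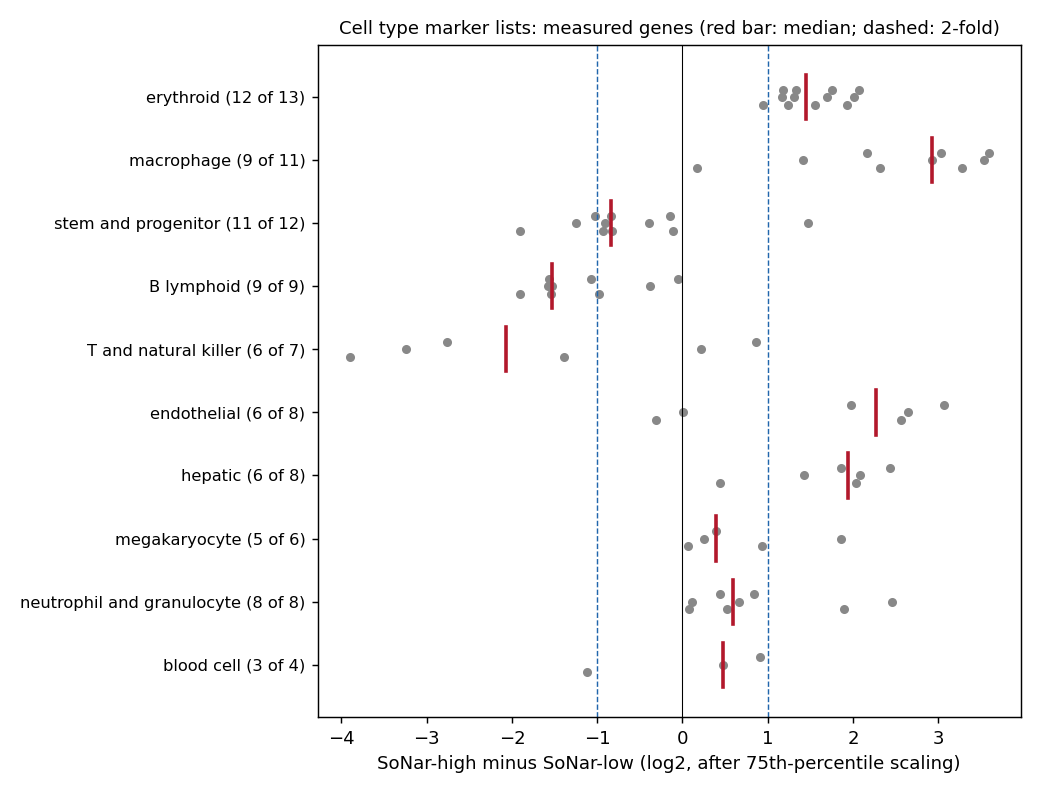
SoNar-high minus SoNar-low difference (log2, after 75th-percentile scaling) of the measured genes of each marker list, 1 point per gene, with red bars at the list medians, dashed lines at 2-fold and the number measured of those listed in brackets. The erythroid median is 1.45 and the B lymphoid median is -1.53, both farther from 0 than any measured member of the G1 set.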

How the data were processed

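The intensity of each spot (processed signal with its error, raw signal and local background) was deposited by the authors as Agilent Feature Extraction output, version 11.0.1.1 per the file headers and 9.1 per the submitters' processing notes. The sources used here give no normalization for the log2 value table deposited by the authors. The columns, with a median of 4.80 each, correlated with their own arrays at 0.999, and the table served as an alternative only. Once sorted, the columns differed by at most 0.000544, as columns do after quantile normalization. The deposited value table is therefore not independent of the quantile normalization setting.

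Control spots and outlier spots were left out, log2 signals were scaled to each array's 75th percentile, and spots of a probe were averaged. Probes were named through accessions in a RefSeq table of GRCm38.p6, used for names, since the array design refers to mm9. A gene took its brightest measured probe. A single array per group allows no test, so genes were counted past 2-fold. Named genes were all members, the 3 largest differences and the brightest gene of each cell cycle list, and the 2 largest of each marker list. Cells were grouped by source label. Normexp (offset 50, on the median spot signal) and loess (span 0.3) used limma 3.58.1. The counting step was run on simulated data with changes far past the cut and spot error only. That run checks the code and not the calls in these data. The members and lists were chosen with earlier results of these data known. A comparison of member protein sequences that had been planned was not made.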

Additional observations from a re-analysis of the deposited data

How the results depend on the processing

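Over 9 other settings for the signals, Ccnd1, Ccnd2 and Ccnd3 kept their direction, and 0 measured members were past 2-fold in either direction. These settings are not all independent. The filters on dim probes left the measured members' values unchanged, and the deposited value table nearly equalled quantile normalization. At 1.5-fold 1 member was lower. The members' median of 0.00 became 0.18 with the 75th percentile of detected probes (all measured genes 0.10), 0.17 with quantile normalization, 0.20 after loess and 0.17 in the deposited value table. The 540 genes past 2-fold higher and 454 lower became 250 and 257 after normexp, 817 and 227 with the 75th percentile of detected probes, 1408 and 1809 at 1.5-fold, and 146 and 48 at 3-fold. With dim probes kept, 2476 genes were higher and 659 lower, and with processed signals of at least 100, 329 and 314. Why was not tested. Cdk6 was near background, which limits its value. No paired analysis was possible because there was 1 array per group.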
